A study of Homo sapiens with 12 samples.

Results

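The integrin genes described here are ITGAM, ITGAX, ITGAL, ITGB2, ITGA4, ITGA5, ITGAV, ITGB1, ITGB3 and ITGB7, which encode the leukocyte integrins and the main matrix-binding integrins of myeloid cells. They were chosen by name, from gene symbols in the platform annotation, and all 10 were measured among 19775 genes. Each gene is represented by the probe set (the group of array probes that reports 1 transcript region) with the highest mean over all arrays among those that name a single gene, and its other probe sets serve as a check. RNA came from U937, an established human myelomonocytic cell line, in 4 groups of 3 arrays, which the series' design text calls biological replicates. They were EVI1 cells (U937_EVI1, transduced with an EVI1 expression vector) given 50 ng/ml TPA, empty vector cells (U937_vec) given the same dose, EVI1 cells given the solvent ethanol, and empty vector cells given ethanol, each for 24 h. EVI1 is a zinc finger transcription factor of the MECOM locus, and TPA, a phorbol ester, switches on protein kinase C. The labels do not say whether the cells were a clone, or whether the replicates of a population came from separate transductions, so p-values between the populations may cover only the spread between cultures.

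Values are log2 RMA signals, a background-corrected and normalized measure in which a step of 1 is a doubling. Differences were tested with limma, 1 model over all 12 arrays, and are given with their standard error (SE) and a p-value adjusted by Benjamini and Hochberg over all 19775 genes. A gene is said to have changed where that adjusted p was below 0.05. The medians of the 12 arrays lay between 5.07 and 5.11, arrays of a group correlated at 0.991 to 0.997, and the number of arrays limits the precision (median SE 0.105 for a difference between groups, with 0.149 for a difference between responses). No detection call was used, so a mean below 5.07 is not shown to be above background. The 5 MECOM probe sets read 2.59 to 3.32 on every array and none differed between the populations (smallest adjusted p = 0.102). Their place relative to the vector insert was not compared, so expression of EVI1 is not shown here and the population is called EVI1-labelled. Of 10 measured myeloid markers, 7 to 9 per group had a mean above 5.07, among them LYZ and CEBPA in every group. Markers of lymphoid cells had like summed levels in all groups (log2 sums of 7.84 to 8.34 over 7 genes). TPA and ethanol arrays differed in a measure of RNA integrity and labelling, the gap between 3' and 5' probe sets of ACTB, which was 1.17 to 1.64 on TPA arrays and 1.72 to 2.01 on ethanol arrays. The same gap of GAPDH overlapped, at 0.30 to 0.61 on TPA arrays and 0.39 to 0.80 on ethanol arrays. In EVI1-labelled cells alone it did not, at 0.30 to 0.41 with TPA, against 0.44 to 0.62 with ethanol. The part of these gaps in the TPA differences below was not tested.

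Integrins are pairs of an alpha and a beta subunit that span the cell membrane and tie it to other cells or to the extracellular matrix. In leukocytes ITGB2 (CD18) joins ITGAL to form LFA-1, ITGAM to form Mac-1, also called complement receptor 3, and ITGAX to form complement receptor 4. ITGB1 joins ITGA4 and ITGA5 in receptors for VCAM1 and fibronectin, ITGAV pairs with several beta subunits to bind vitronectin, fibronectin and osteopontin, and ITGB7 joins ITGA4 to bind the gut addressin MADCAM1. Phorbol esters are widely used to turn U937 cells into adherent macrophage-like cells, and gain of Mac-1 at the surface is a usual readout of that change.

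Promoter sequence from RefSeq (GRCh38.p14) was at hand for 6 of the 10 genes, in 8 windows, since ITGAV and ITGB1 each have a second annotated start. The 4 windows printed here are those of the gene with the largest rise in empty vector cells (ITGAM), of ITGB7, of ITGA5, and the second window of ITGAV, the member that read higher in EVI1-labelled cells. Each line gives the 250 bases before the start and the first 10 after it, 5' to 3' on the gene's strand, with capitals for the letters of the motifs searched.
ITGAM (chr16:31259725-31259984, plus strand): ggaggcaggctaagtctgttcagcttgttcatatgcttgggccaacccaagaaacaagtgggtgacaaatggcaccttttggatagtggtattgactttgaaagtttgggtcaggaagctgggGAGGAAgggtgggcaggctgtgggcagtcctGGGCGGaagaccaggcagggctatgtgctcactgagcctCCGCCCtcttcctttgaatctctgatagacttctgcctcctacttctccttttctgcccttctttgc
ITGB7 (chr12:53207242-53207501, minus strand): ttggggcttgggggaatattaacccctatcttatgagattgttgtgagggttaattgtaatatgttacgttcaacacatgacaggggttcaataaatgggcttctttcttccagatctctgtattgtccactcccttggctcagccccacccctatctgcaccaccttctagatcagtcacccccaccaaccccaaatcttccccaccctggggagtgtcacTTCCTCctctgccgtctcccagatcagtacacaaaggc
ITGA5 (chr12:54419257-54419516, minus strand): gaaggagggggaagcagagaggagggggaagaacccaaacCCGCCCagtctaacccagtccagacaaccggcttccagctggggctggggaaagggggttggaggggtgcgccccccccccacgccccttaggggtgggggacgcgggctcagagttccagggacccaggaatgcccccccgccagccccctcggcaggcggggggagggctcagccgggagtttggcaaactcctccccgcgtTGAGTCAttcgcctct
ITGAV, second start (chr2:186599955-186600214, plus strand): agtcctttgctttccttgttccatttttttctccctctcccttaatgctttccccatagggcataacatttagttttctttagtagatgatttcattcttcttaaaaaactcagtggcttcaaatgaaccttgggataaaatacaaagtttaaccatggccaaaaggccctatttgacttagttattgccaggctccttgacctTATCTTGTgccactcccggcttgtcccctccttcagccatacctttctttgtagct

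The motifs were GAGGAA for the myeloid factor PU.1, TGAGTCA for AP-1, GGGCGG for Sp1 and ACAAGATA for the GATA-like site known for EVI1, each searched on both strands of the whole window of 300 bases (250 before to 50 after the start). PU.1 is known to act at the ITGAM promoter in human myeloid cells. The PU.1 letters were found in ITGAM at 127 bases before the start, in ITGB7 at 28 before, in the first window of ITGB1 at 184 before and in the first window of ITGAV at 108 before. They also lay 30 bases after the start of ITGAM and 25 after that of ITGB7. Of 35116 promoter windows 27.9% held these letters. The AP-1 letters were found only in ITGA5, from 6 bases before the start, and 4.95% of windows held them. The Sp1 letters were found in ITGAM, ITGA5 and ITGB1, and in 45% of windows. The EVI1 letters were found only in the second window of ITGAV, 46 bases before the start on the reverse strand, and 0.461% of windows held them. In the ITGA4 window none of the 4 motifs was found. No motif overlapped another in these windows, and a match describes letters only, not a bound site.

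TPA raised 8 of the 10 integrin genes, lowered 1 and left 1 below the threshold in EVI1-labelled cells, and it did the same in empty vector cells. The 8 that rose, in either population, were ITGAM, ITGAX, ITGAL, ITGB2, ITGA5, ITGAV, ITGB1 and ITGB7, the 1 that fell was ITGA4, and the 1 that did not pass was ITGB3. Over all genes 40.0% were called in EVI1-labelled cells (19.4% higher, 20.6% lower), and 43.2% in empty vector cells (20.7% higher, 22.5% lower). The TPA and ethanol arrays did not overlap for 9 of the 10 genes in EVI1-labelled cells and for all 10 in empty vector cells, where 46.6% and 50.3% of all genes did not. The median difference of the 10 genes was 2.10 in EVI1-labelled cells, where it was 0.0033 over all genes. In empty vector cells it was 2.20, against 0.017 over all genes. RNA of whole cultures was measured, so a change in the share of responding cells and a change of RNA per cell cannot be told apart.

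**Figure D1:**
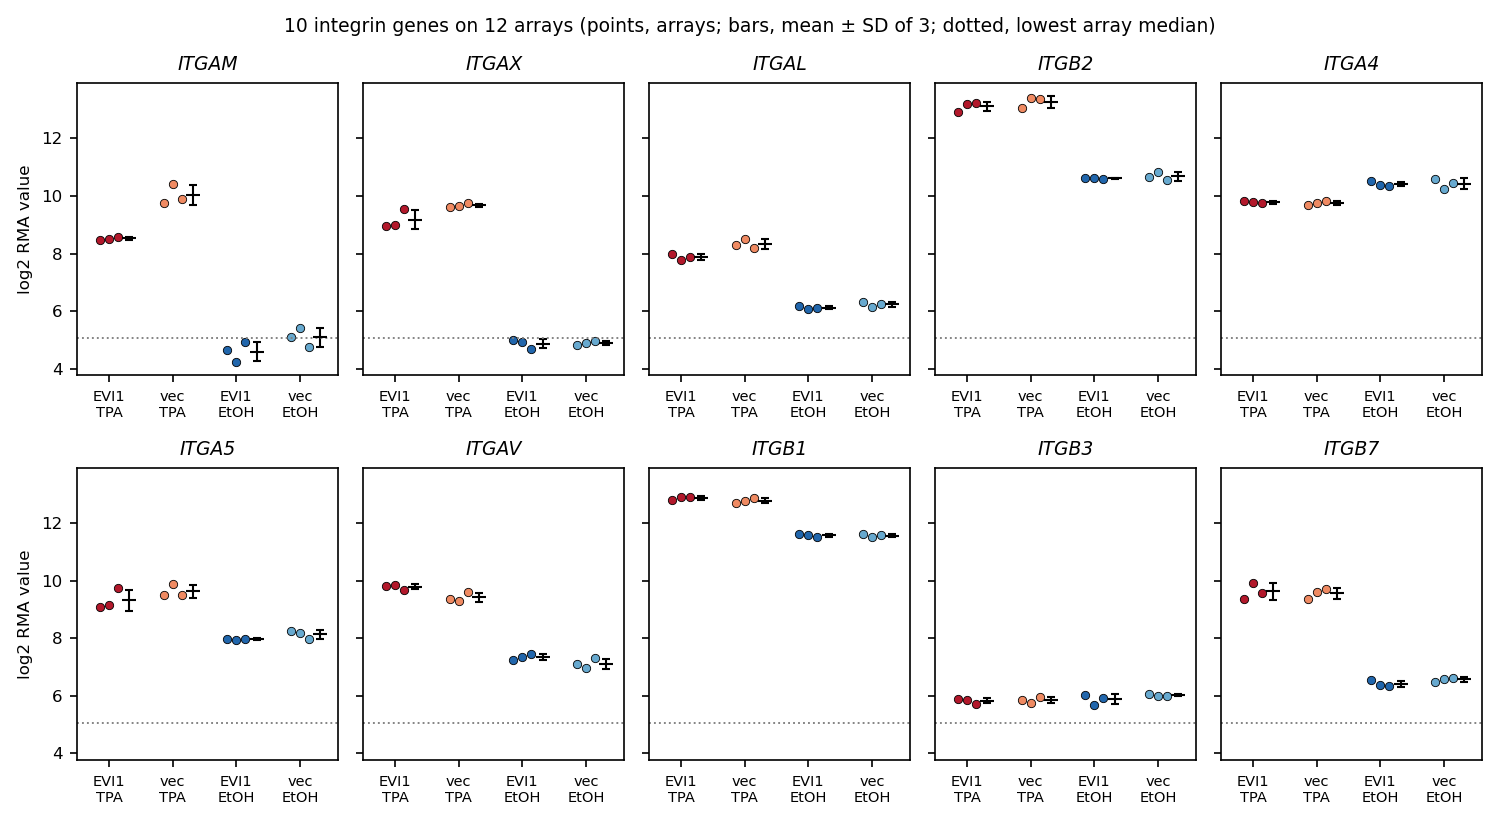
Log2 RMA value (vertical axis) of each of the 10 integrin genes on the 12 arrays, in the order EVI1-labelled with TPA, empty vector with TPA, EVI1-labelled with ethanol and empty vector with ethanol. Points are arrays, bars the mean ± SD of 3 arrays, and the dotted line the lowest array median of 5.07. ITGAM and ITGAX lie at or near that line in ethanol and between 8.47 and 10.42 in TPA, while ITGB3 stays between 5.68 and 6.07 in all groups.

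Among the alpha subunits that pair with ITGB2, ITGAM and ITGAX had the largest rises. ITGAM read 8.47, 8.51 and 8.59 in EVI1-labelled cells with TPA, against 4.63, 4.23 and 4.91 with ethanol. With the empty vector it read 9.76, 10.42 and 9.90 with TPA, against 5.09, 5.40 and 4.76 with ethanol. No TPA array came near an ethanol array in either population, and the TPA groups of the populations did not overlap either. The rise was 3.93 ± 0.20 (SE) in EVI1-labelled cells (limma, adjusted p = 1.44e-09), and in empty vector cells 4.94 ± 0.20 (adjusted p = 1.2e-10), or 15.3-fold and 30.8-fold. The ethanol mean of EVI1-labelled cells (4.59 ± 0.34, SD, n = 3) was under the lowest array median and that of empty vector cells (5.08 ± 0.32) at it, so the size of the rise is uncertain. The second ITGAM probe set read 5.24 to 5.94 on all arrays and was not called in any comparison.

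ITGAX encodes the CD11c chain of complement receptor 4, a marker of macrophages and dendritic cells. It read 8.97, 8.99 and 9.55 in EVI1-labelled cells with TPA, against 4.98, 4.92 and 4.68 with ethanol. The empty vector arrays read 9.63, 9.64 and 9.74 with TPA, against 4.81, 4.90 and 4.96 with ethanol. The ethanol arrays of the populations overlapped and all 6 lay under the lowest array median, so this rise too has an uncertain size. It was 4.31 ± 0.14 in EVI1-labelled cells (limma, adjusted p = 2.46e-11) and 4.78 ± 0.14 in empty vector cells (limma, adjusted p = 7.43e-12). ITGAX has 1 other probe set, with a mean of 4.07 over the 12 arrays. It rose by 0.29 in empty vector cells and was not called in EVI1-labelled cells.

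ITGAL, the CD11a chain of LFA-1, which binds ICAM proteins on other cells, was well above the lowest array median in every group. It read 8.0, 7.78 and 7.88 in EVI1-labelled cells with TPA, against 6.17, 6.07 and 6.12 with ethanol. Empty vector cells read 8.29, 8.51 and 8.18 with TPA, against 6.32, 6.15 and 6.26 with ethanol. The 4 groups separated into a high TPA level and a low ethanol level, with a rise of 1.77 ± 0.10 in EVI1-labelled cells (limma, adjusted p = 3.13e-09) and 2.08 ± 0.10 in empty vector cells (limma, adjusted p = 4.64e-10). The other ITGAL probe set rose by 1.79 ± 0.14 in EVI1-labelled cells and by 2.54 ± 0.14 in empty vector cells.

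ITGB2, the beta chain that these 3 alpha chains share and whose loss causes leukocyte adhesion deficiency, was high before treatment and rose further. It read 12.93, 13.19 and 13.22 in EVI1-labelled cells with TPA, against 10.62, 10.63 and 10.60 with ethanol. With the empty vector it read 13.04, 13.40 and 13.36 with TPA, against 10.66, 10.84 and 10.55 with ethanol. TPA and ethanol arrays were far apart and the populations overlapped in each treatment. The rise was 2.50 ± 0.11 in EVI1-labelled cells (limma, adjusted p = 5.5e-10) and 2.58 ± 0.11 in empty vector cells (limma, adjusted p = 3.06e-10), and both other probe sets rose in either population, by 1.28 to 2.93.

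Of the matrix-binding subunits ITGAV, ITGA5 and ITGB1 rose by less than ITGAM and ITGAX, and ITGB3 was not called. ITGAV, the alpha chain of the vitronectin receptors, read 9.80, 9.86 and 9.69 in EVI1-labelled cells with TPA, against 7.26, 7.34 and 7.44 with ethanol. The empty vector arrays read 9.38, 9.28 and 9.60 with TPA, against 7.09, 6.95 and 7.30 with ethanol. The rise was 2.44 ± 0.11 in EVI1-labelled cells (limma, adjusted p = 4.33e-10) and 2.31 ± 0.11 in empty vector cells (limma, adjusted p = 5.16e-10). ITGA5, the alpha chain of the main fibronectin receptor, read 9.07, 9.15 and 9.74 in EVI1-labelled cells with TPA, against 7.99, 7.94 and 7.99 with ethanol. With the empty vector ITGA5 read 9.49, 9.88 and 9.52 with TPA, against 8.26, 8.19 and 7.97 with ethanol. The TPA arrays were all above the ethanol arrays, and in the EVI1-labelled cells replicate 3 stood above the other two, as it did for ITGAX. The rise of ITGA5 was 1.35 ± 0.16 in EVI1-labelled cells (limma, adjusted p = 6.4e-06) and 1.49 ± 0.16 in empty vector cells (limma, adjusted p = 2.01e-06). ITGAV and ITGA5 have no other single-gene probe set.

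ITGB1, the common beta chain of the fibronectin, collagen and laminin receptors, was among the brightest genes of the table, at the 98.7th percentile of gene means. It read 12.80, 12.91 and 12.91 in EVI1-labelled cells with TPA, against 11.63, 11.59 and 11.53 with ethanol. With the empty vector it read 12.70, 12.78 and 12.88 with TPA, against 11.62, 11.51 and 11.58 with ethanol. The spread within groups was small beside the rise, which was 1.29 ± 0.08 in EVI1-labelled cells (limma, adjusted p = 7.75e-09) and 1.22 ± 0.08 in empty vector cells (limma, adjusted p = 1.12e-08). The 2 other ITGB1 probe sets with a mean above 5.07 rose by 1.65 and 1.84 in EVI1-labelled cells and by 1.52 and 1.57 in empty vector cells. The remaining 4 ITGB1 probe sets had means of 2.38 to 3.16, and 1 of them rose, by 0.28 in empty vector cells.

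ITGB3, the beta chain that joins ITGAV in the vitronectin receptor of osteoclasts and endothelium and ITGA2B on platelets, did not follow ITGAV. It read 5.88, 5.87 and 5.72 in EVI1-labelled cells with TPA, against 6.03, 5.68 and 5.93 with ethanol. The empty vector arrays read 5.86, 5.75 and 5.96 with TPA, against 6.07, 6.0 and 6.0 with ethanol. The treatments overlapped in EVI1-labelled cells, while in empty vector cells all TPA arrays were below the ethanol arrays by a small margin. The difference was -0.06 in EVI1-labelled cells (95% confidence interval -0.27 to 0.15, limma adjusted p = 0.725) and -0.17 in empty vector cells (-0.38 to 0.04, adjusted p = 0.205). None of its 7 probe sets was called in any of the 5 comparisons, and 4 of the 7 had a mean under 5.07. ITGA2B, its platelet partner, was not called either, with group means of 5.84 to 6.08.

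The subunits of the alpha 4 beta 7 receptor moved in opposite directions. ITGB7 read 9.36, 9.93 and 9.59 in EVI1-labelled cells with TPA, against 6.54, 6.37 and 6.34 with ethanol. Empty vector cells read 9.35, 9.61 and 9.71 with TPA, against 6.48, 6.60 and 6.63 with ethanol. This rise, 3.21 ± 0.13 in EVI1-labelled cells (limma, adjusted p = 2.45e-10) and 2.99 ± 0.13 in empty vector cells (limma, adjusted p = 3.56e-10), was exceeded among the 10 genes only by ITGAX and ITGAM. ITGA4, the alpha chain of VLA-4, read 9.84, 9.78 and 9.74 in EVI1-labelled cells with TPA, against 10.51, 10.38 and 10.36 with ethanol. With the empty vector ITGA4 read 9.70, 9.76 and 9.82 with TPA, against 10.60, 10.24 and 10.45 with ethanol. All TPA arrays were below all ethanol arrays, although ITGA4 remained well above the lowest array median. Its fall was -0.63 ± 0.09 in EVI1-labelled cells (limma, adjusted p = 6.45e-05) and -0.67 ± 0.09 in empty vector cells (limma, adjusted p = 3.19e-05). The 3 other ITGA4 probe sets fell too, with differences of -0.78 to -0.43 in EVI1-labelled cells and -0.95 to -0.39 in empty vector cells.

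**Figure D2:**
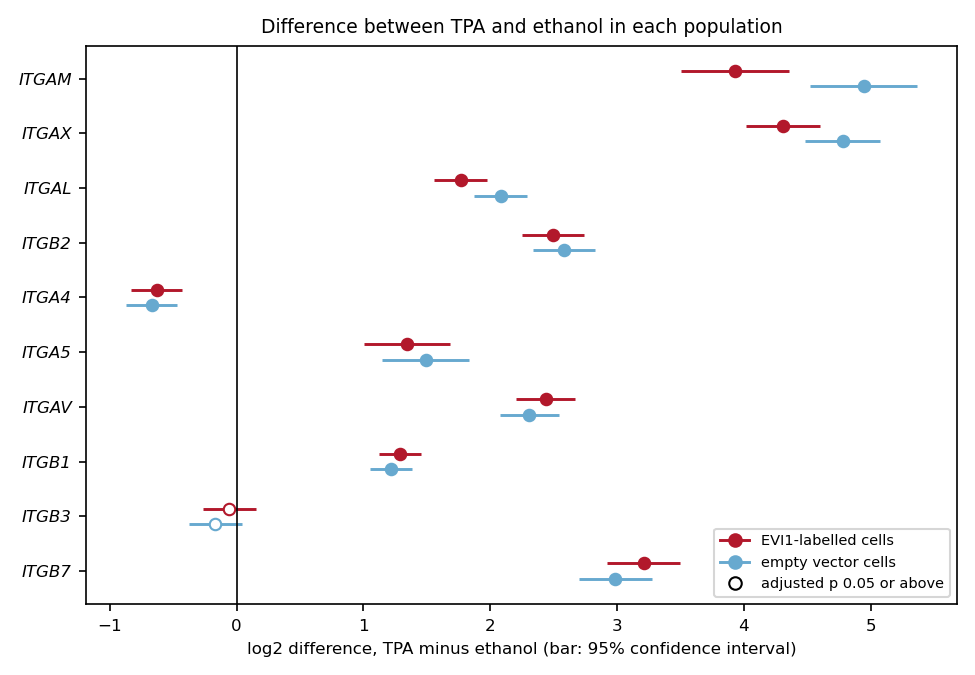
Log2 difference between TPA and ethanol (horizontal axis) of each integrin gene in EVI1-labelled cells (upper, dark red) and empty vector cells (lower, light blue), with 95% confidence intervals and open symbols where the adjusted p was 0.05 or above. ITGAX at 4.31 and 4.78 and ITGAM at 3.93 and 4.94 lie farthest to the right, ITGA4 at -0.63 and -0.67 is the only called gene left of 0, and the ITGB3 intervals cross 0.

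The 10 genes have 30 single-gene probe sets, 20 of them beside those described by gene. Of these 20, 8 were called in the same direction as their gene's main probe set in EVI1-labelled cells and 10 in empty vector cells, none was called in the opposite direction, and the rest were not called. ITGA5, ITGAV and ITGB7 have only 1 probe set each. The second probe set of ITGAM was not called, and that of ITGAX was called in empty vector cells only, at 0.29. The rises of ITGAL, ITGB2 and ITGB1 and the fall of ITGA4 were seen in at least 2 probe sets. With the mean over all probe sets of a gene all 9 calls held in each population, but 3 rises were smaller by over 1.5 times. ITGAM then rose by 2.12 in EVI1-labelled cells and 2.49 in empty vector cells, ITGAX by 2.24 in EVI1-labelled cells and 2.54 in empty vector cells, and ITGB1 by 0.73 in EVI1-labelled cells and 0.69 in empty vector cells.

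**Figure D3:**
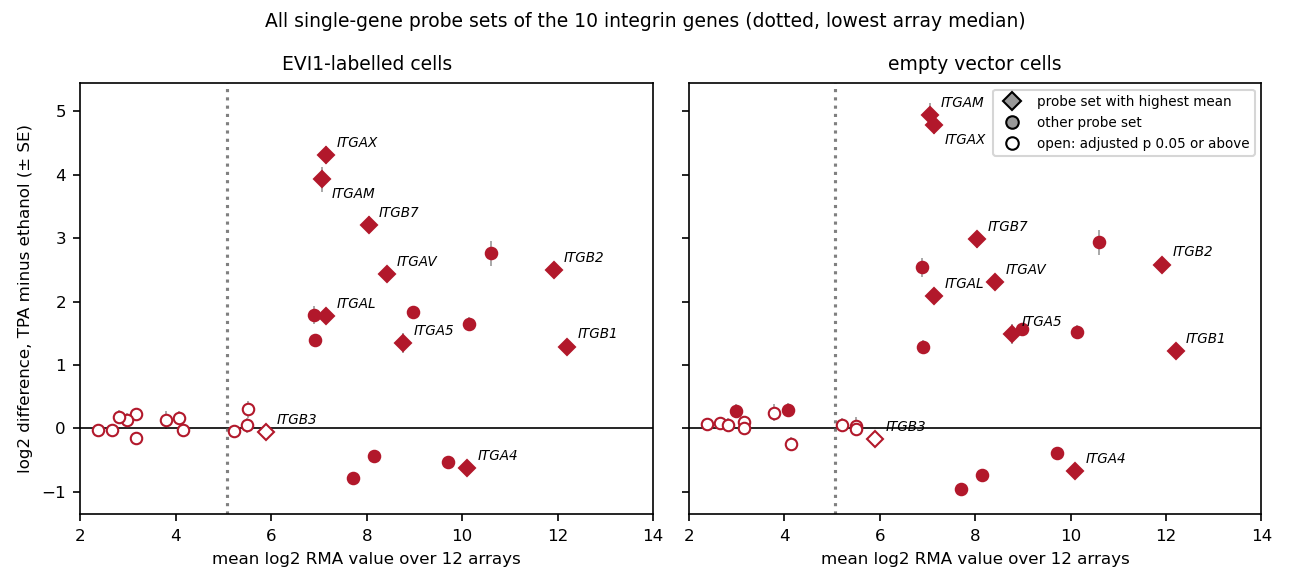
Log2 difference between TPA and ethanol with its SE (vertical axis) against the mean log2 RMA value over 12 arrays (horizontal axis) for the 30 probe sets of the 10 genes, in EVI1-labelled cells (left) and empty vector cells (right). Diamonds are the probe sets with the highest mean per gene, circles the others, and open symbols those not called. To the left of the dotted line at 5.07 the differences lie near 0, while the 4 ITGA4 probe sets all lie below 0.

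After TPA the populations differed in 4 of the 10 genes, with ITGAM, ITGAX and ITGAL lower and ITGAV higher in EVI1-labelled cells. Over all genes 11.2% were called in this comparison, 5.90% higher and 5.30% lower in EVI1-labelled cells. The arrays of the populations did not overlap for these 4 genes, and for 22.4% of all genes. The median difference of the 10 genes was -0.09, against 0.0067 over all genes. The 3 that were lower encode alpha partners of ITGB2, while ITGB2 itself was not called, at -0.15 (95% confidence interval -0.40 to 0.09, limma adjusted p = 0.503).

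ITGAM showed the largest difference, with the means of 8.52 ± 0.06 in EVI1-labelled cells and 10.03 ± 0.35 in empty vector cells (SD, n = 3 each) separated by -1.50 ± 0.20 (SE, limma adjusted p = 2.24e-04), or 2.83-fold. It was lower in each of the 3 EVI1-labelled arrays than in any empty vector array, and the call held without any 1 of the 12 arrays (largest adjusted p = 0.00137). With the mean over both ITGAM probe sets the difference was -0.74 (adjusted p = 0.00495). ITGAL averaged 7.89 ± 0.11 in EVI1-labelled cells and 8.33 ± 0.17 in empty vector cells, a difference of -0.44 ± 0.10 (limma, adjusted p = 0.00861), and the call held without any 1 array (largest adjusted p = 0.0436). The second ITGAL probe set differed by -0.64 ± 0.14 (adjusted p = 0.0128 over all single-gene probe sets). For ITGAL the groups did not overlap, with 7.78 to 8.0 in EVI1-labelled cells against 8.18 to 8.51 in empty vector cells.

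The calls of ITGAX and ITGAV were close to the threshold. ITGAX averaged 9.17 ± 0.33 in EVI1-labelled cells and 9.67 ± 0.06 in empty vector cells, a difference of -0.50 ± 0.14 (limma, adjusted p = 0.0302). The call was lost without replicate 1 or 2 of EVI1-labelled cells with TPA (adjusted p = 0.116 and 0.129) and without replicate 1, 2 or 3 of empty vector cells with TPA (0.0623, 0.0691 and 0.0962). ITGAV averaged 9.78 ± 0.09 in EVI1-labelled cells and 9.42 ± 0.16 in empty vector cells, a difference of 0.36 ± 0.11 (limma, adjusted p = 0.0451). It missed the threshold without 8 of the 12 arrays. With TPA these were replicates 1 and 2 of EVI1-labelled cells (0.105 and 0.151) and of empty vector cells (0.12 and 0.167). With ethanol they were replicates 1, 2 and 3 of EVI1-labelled cells (0.059, 0.0629 and 0.0548) and replicate 1 of empty vector cells (0.0625). When only the 6 TPA arrays entered the fit, ITGAM alone was called, with ITGAX, ITGAL and ITGAV at adjusted p of 0.106, 0.059 and 0.101. ITGAX also missed the threshold with the mean of its probe sets (-0.30, adjusted p = 0.0779), and ITGAV when all single-gene probe sets were tested as separate features (0.0594).

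The other members did not pass after TPA. ITGA5 differed by -0.31 (95% confidence interval -0.65 to 0.03, limma adjusted p = 0.279), and without replicate 3 of EVI1-labelled cells with TPA it passed, at -0.52 (adjusted p = 0.0134). ITGB1 differed by 0.09 (-0.08 to 0.25), ITGB7 by 0.07 (-0.22 to 0.36), ITGA4 by 0.03 (-0.18 to 0.23) and ITGB3 by -0.03 (-0.24 to 0.18).

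In ethanol none of the 10 genes passed with limma, where 3.27% of all genes did (1.32% higher, 1.95% lower), and 2 had an unadjusted p under 0.05. With trended and robust moderation the count was 0 as well. Those 2 were ITGAM at -0.49 (95% confidence interval -0.92 to -0.07, adjusted p = 0.283) and ITGAV at 0.23 (0.0012 to 0.47, adjusted p = 0.389), and ITGAM is not shown to be above background there. The populations overlapped in ethanol for all 10 genes, where 22.0% of all genes did not overlap.

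The difference between the TPA responses of the populations was tested directly and none of the 10 genes passed, where 1.98% of all genes did (0.936% higher, 1.05% lower), while 3 had an unadjusted p under 0.05. The count was 0 with trended and robust moderation too. ITGAM came nearest, with a smaller response in EVI1-labelled cells and a difference of -1.01 ± 0.28 on the log2 scale (95% confidence interval -1.61 to -0.41, limma adjusted p = 0.0948). With the mean over all probe sets ITGAM was at -0.37 (adjusted p = 0.517) and ITGAL came nearest, at -0.53 (adjusted p = 0.0948). In the fit by main probe set ITGAX followed at -0.47 (-0.89 to -0.05, adjusted p = 0.312) and ITGAL at -0.32 (-0.61 to -0.02, adjusted p = 0.346). For the other 7 genes the interval of the difference included 0, with ITGB2 at -0.09 (-0.43 to 0.26), ITGAV at 0.13 (-0.20 to 0.46) and ITGB7 at 0.22 (-0.18 to 0.63). Without replicate 3 of EVI1-labelled cells with TPA, ITGAX passed at -0.66 (adjusted p = 0.017).

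**Figure D4:**
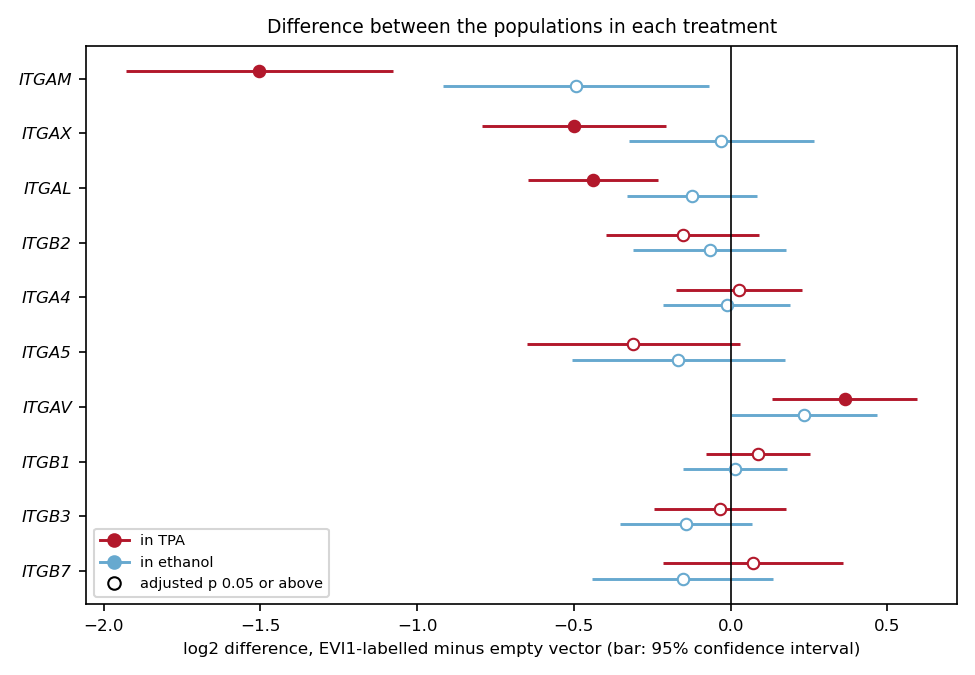
Log2 difference between EVI1-labelled and empty vector cells (horizontal axis) of each integrin gene in TPA (upper, dark red) and in ethanol (lower, light blue), with 95% confidence intervals and open symbols where the adjusted p was 0.05 or above. ITGAM in TPA lies at -1.50, apart from the rest, ITGAX and ITGAL lie at -0.50 and -0.44, ITGAV at 0.36, and no ethanol symbol is filled.

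ITGAM, ITGAX and ITGAD lie next to each other in that order among the measured genes of chromosome 16. ITGAD, which encodes the CD11d chain and is a further alpha partner of ITGB2, is not one of the 10 genes, and after TPA it was higher in EVI1-labelled cells, where ITGAM, ITGAX and ITGAL were lower. Its ethanol means, 4.90 in EVI1-labelled cells and 4.82 in empty vector cells, are not shown to be above background. It read 6.16, 6.42 and 7.0 in EVI1-labelled cells with TPA, against 5.09, 5.08 and 5.32 in empty vector cells with TPA. With ethanol it read 4.79, 4.97 and 4.94 in EVI1-labelled cells, against 4.73, 4.98 and 4.75 in empty vector cells. Its difference in TPA was 1.36 ± 0.17 (limma, adjusted p = 1.27e-04) and the difference between the responses 1.28 ± 0.23 (limma, adjusted p = 0.0139). The 10 measured genes on each side of ITGAM had a median difference of -0.15 in TPA, with 1 higher and 3 lower, and of -0.03 in ethanol, with none called. These neighbours include ITGAD, the 1 higher, and ITGAX, 1 of the 3 lower. Over all genes 5.90% were higher and 5.30% lower in TPA. The 20 neighbours of ITGAV had a median difference of 0.025 in TPA and none was called. Those of ITGAL, 20 as well, had a median difference of -0.17 in TPA, with 0 higher and 5 lower. In ethanol the median of the ITGAL neighbours was -0.18, with 0 higher and 1 lower. ITGAL itself differed by -0.44 in TPA and by -0.12 in ethanol. The part of the neighbours' differences in that of ITGAL was not tested.

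Of 15 other integrin subunits that were measured, 5 rose and 1 fell with TPA in EVI1-labelled cells, and the same numbers held in empty vector cells. Over all genes 19.4% rose and 20.6% fell in EVI1-labelled cells, and 20.7% rose and 22.5% fell in empty vector cells. ITGB5, another beta partner of ITGAV, read 10.46, 10.08 and 10.13 in EVI1-labelled cells with TPA, against 5.79, 5.58 and 5.82 with ethanol. The empty vector arrays read 10.79, 10.80 and 10.59 with TPA, against 5.70, 5.63 and 5.45 with ethanol. Its rise of 4.49 ± 0.12 in EVI1-labelled cells and 5.13 ± 0.12 in empty vector cells (limma, adjusted p = 3.72e-12 and 8.01e-13) stood beside the flat readings of ITGB3. The laminin receptor chain ITGA6 rose by 3.66 ± 0.16 in EVI1-labelled cells and by 2.75 ± 0.16 in empty vector cells. ITGA3, a laminin receptor chain as well, rose by 2.95 ± 0.16 in EVI1-labelled cells and by 2.15 ± 0.16 in empty vector cells, from ethanol means of 3.80 in EVI1-labelled cells and 3.84 in empty vector cells that are not shown to be above background, so these sizes are uncertain. After TPA 2 of the 15 were higher and 1 lower in EVI1-labelled cells, where 5.90% of all genes were higher and 5.30% lower. The higher ones were ITGAD, described above, and ITGA3, at 0.76 ± 0.16 (limma, adjusted p = 0.00788). The lower one was ITGB5, at -0.50 ± 0.12 (limma, adjusted p = 0.0116). ITGAE, the alpha chain that joins ITGB7 on lymphocytes of epithelia to bind E-cadherin, fell, with differences of -0.48 in EVI1-labelled cells and -0.44 in empty vector cells. The median of the 15 was 0.09 in EVI1-labelled cells and 0.07 in empty vector cells, against 0.0033 and 0.017 over all genes.

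Genes of integrin activation and adhesion signalling, a list of 36 of which 33 were measured, mostly rose with TPA. In EVI1-labelled cells 21 rose and 5 fell (median 0.50), and in empty vector cells 21 rose and 4 fell (median 0.63). Over all genes 19.4% rose and 20.6% fell in EVI1-labelled cells, and 20.7% rose and 22.5% fell in empty vector cells. The Src family kinase gene FGR rose by 3.33 ± 0.13 in EVI1-labelled cells and by 3.48 ± 0.13 in empty vector cells. The endocytic adaptor DAB2 rose by 2.82 ± 0.12 in EVI1-labelled cells and by 3.64 ± 0.12 in empty vector cells. RASSF5, a Rap1 effector that activates LFA-1, rose by 1.95 ± 0.09 in EVI1-labelled cells and by 2.31 ± 0.09 in empty vector cells. APBB1IP, which links Rap1 to talin, rose by 1.68 ± 0.11 in EVI1-labelled cells and by 2.05 ± 0.11 in empty vector cells. RASGRP2, an exchange factor for Rap1, fell, with differences of -2.43 in EVI1-labelled cells and -3.08 in empty vector cells. The kindlin gene FERMT1 fell with -1.74 in EVI1-labelled cells and -2.21 in empty vector cells. Another kindlin gene, FERMT3, rose by 1.46 in EVI1-labelled cells and by 1.65 in empty vector cells. After TPA 7 of the 33 were lower and 2 higher in EVI1-labelled cells, among them the focal adhesion protein gene PXN at -0.79 ± 0.16 and the cytoskeletal linker gene VCL at 0.45 ± 0.10 (limma, adjusted p = 0.00457 and 0.00803), where 5.30% of all genes were lower and 5.90% higher.

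Of 29 measured ligand genes of the 10 integrins 6 rose and 1 fell in EVI1-labelled cells, and 7 rose with none falling in empty vector cells. The share that rose is near the 19.4% and 20.7% of all genes, and the list medians were 0.05 in EVI1-labelled cells and 0.04 in empty vector cells. SPP1, the osteopontin gene and a ligand of ITGAV receptors, rose by 8.92 ± 0.53 in EVI1-labelled cells and by 9.56 ± 0.53 in empty vector cells. Its ethanol means, 4.56 in EVI1-labelled cells and 4.99 in empty vector cells, are not shown to be above background, which leaves the size of its rise uncertain. The empty vector arrays with ethanol were also uneven for SPP1, at 4.24, 3.91 and 6.81 in replicates 1, 2 and 3. ICAM1, the ligand of LFA-1 and Mac-1, rose by 3.09 ± 0.12 in EVI1-labelled cells and by 3.95 ± 0.12 in empty vector cells. C3, the source of the complement fragment that ITGAM and ITGAX receptors bind, rose by 2.90 ± 0.24 in EVI1-labelled cells and by 2.36 ± 0.24 in empty vector cells. After TPA 5 of the 29 ligand genes were lower in EVI1-labelled cells and 1 higher, where 5.30% of all genes were lower and 5.90% higher. The differences were ICAM3 at -1.53 ± 0.30, COL4A1 at -1.22 ± 0.14, ICAM1 at -0.78 ± 0.12, ICAM4 at -0.48 ± 0.12, LAMC1 at -0.45 ± 0.09 and ICAM2 at 0.68 ± 0.16 (limma, adjusted p = 0.00383, 9.82e-05, 9.11e-04, 0.017, 0.00586 and 0.0139). In ethanol 2 ligand genes were lower in EVI1-labelled cells and none higher, where 1.95% of all genes were lower and 1.32% higher. They were LAMC1 at -0.65 ± 0.09 and COL4A1 at -0.60 ± 0.14 (limma, adjusted p = 0.0012 and 0.0352), so these were not differences of the TPA cells alone. VCAM1, MADCAM1 and the fibronectin gene FN1, ligands of ITGA4 receptors, were not called in any comparison. VCAM1, with group means of 3.55 to 3.66, is not shown to be above background. MADCAM1 had group means of 4.88 to 5.14, about the lowest array median of 5.07, and FN1 of 5.69 to 5.88.

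Myeloid markers did not all rise with the integrins. In EVI1-labelled cells 2 of 10 rose and 4 fell, where 19.4% of all genes rose and 20.6% fell. In empty vector cells 4 rose and 5 fell, where 20.7% of all genes rose and 22.5% fell. The share of markers that rose in EVI1-labelled cells is near that of all genes. CSF1R, the macrophage growth factor receptor gene, rose by 2.99 ± 0.15 in EVI1-labelled cells and by 3.33 ± 0.15 in empty vector cells, while LYZ fell, with differences of -1.63 in EVI1-labelled cells and -1.29 in empty vector cells. The granule protease genes ELANE and PRTN3 fell further, ELANE with -3.56 in EVI1-labelled cells and -2.29 in empty vector cells, and PRTN3 with -2.96 in EVI1-labelled cells and -3.12 in empty vector cells. After TPA 4 of the 10 markers were lower in EVI1-labelled cells and 1 higher, where 5.30% of all genes were lower and 5.90% higher. ELANE differed by -1.67 ± 0.26, PRTN3 by -0.93 ± 0.21 and CEBPA by 0.82 ± 0.13 (limma, adjusted p = 7.35e-04, 0.0102 and 8.96e-04). CD14, the lipopolysaccharide co-receptor of monocytes, rose by 2.00 ± 0.19 in empty vector cells and was lower in EVI1-labelled cells after TPA, with a difference of -1.70 ± 0.19 (limma, adjusted p = 8.25e-05). The CD14 mean of EVI1-labelled cells with TPA, 5.05, and the PRTN3 mean of the same cells, 4.14, are not shown to be above background. Nor is the CD14 mean of empty vector cells with ethanol, 4.74, so the sizes of the CD14 rise and of its difference in TPA are uncertain. Platelet markers had higher summed levels with TPA, at 8.63 to 8.94 in EVI1-labelled cells, against 8.12 to 8.24 with ethanol. In empty vector cells they were 9.40 to 9.81 with TPA, against 8.14 to 8.21 with ethanol. VWF and PPBP were the 2 of 7 called in either population, while GP1BA, GP9, GP6, PF4 and ITGA2B were not. PPBP averaged 3.80 in EVI1-labelled cells and 8.22 in empty vector cells after TPA, a difference of -4.42 ± 0.22 (limma, adjusted p = 1.33e-07). The PPBP means of EVI1-labelled cells with TPA and of both ethanol groups (3.10 in EVI1-labelled cells and 3.11 in empty vector cells) are not shown to be above background, so the size of this difference is uncertain. Of 4 measured erythroid markers 1 fell with TPA in EVI1-labelled cells, and 1 rose and 1 fell in empty vector cells. Of 9 epithelial and fibroblast markers none was called in EVI1-labelled cells and 1 rose in empty vector cells, and of 7 lymphoid markers none was called in EVI1-labelled cells and 1 fell in empty vector cells. None of these 3 lists had a called gene between the populations in TPA. The part of the marker differences in those of ITGAM, ITGAX, ITGAL and ITGAV was not tested. The ACTB gap was 1.23 to 1.29 in EVI1-labelled cells and 1.17 to 1.64 in empty vector cells after TPA, so the populations overlapped in it.

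The genes whose values followed each integrin most closely over the 12 arrays are given as a description, since all these correlations are dominated by the TPA step and share the arrays. Among 3818 other genes with group means at least 1 apart, ITGAM was most like ARAP1, ANXA5 and LPXN (Pearson's r = 0.995, 0.995 and 0.994). ITGAX was most like C5AR2, ACVR1 and IRF2BPL (0.999, 0.998 and 0.998) and ITGAL most like TEX264, PDLIM5 and CACNA2D4 (0.997, 0.996 and 0.996). ITGB2 followed TIMP1, SPPL2A and ABHD17A (0.998, 0.998 and 0.998) and ITGB1 followed NCEH1, ADAM17 and CPEB2 (0.998, 0.997 and 0.997). ITGAV was most like TMEM9B, CSF2RB and MAFF (0.998, 0.998 and 0.997), ITGB7 most like SRD5A1, A2M and MMP7 (0.997, 0.997 and 0.996), and ITGA5 most like THEMIS2, SLC66A1 and AKAP13 (0.990, 0.989 and 0.988). ITGA4 and ITGB3 had group means less than 1 apart and were not compared in this way.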

How the data were processed

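Total RNA from U937 cells was labelled by 3' in vitro transcription and measured on 12 arrays, 3 per group. The authors deposited log2 RMA values, and the submitters' processing notes name Expression Console 1.3. RMA equalises the arrays' distributions, which takes out any shift that most genes share. Of 54675 probe sets 41097 name 1 gene, per the platform annotation, and only these were used. Per gene the probe set with the highest mean was taken, which gave 19775 genes.

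The values were fitted with limma 3.58.1 in R 4.3.3, 1 mean per group over 12 arrays, moderated by eBayes with 5.22 prior beside 8 residual degrees of freedom. Tests were two-sided, with adjustment by Benjamini and Hochberg at 0.05. The members and lists were chosen with earlier results of these data known. All 10 integrins are named, and of each related list up to 4 called genes per direction and comparison with the largest change and a higher group mean above 6.12, the median of all genes. The text names part of these and summarises the rest, and for each integrin whose group means differ by 1 or more it names the 3 genes most alike by Pearson correlation. ITGA2B, FERMT3, VCAM1, MADCAM1, FN1, GP1BA, GP9, GP6 and PF4 were named after their values were seen. The fit was tested on simulated data, and at a change of 0.5 on the log2 scale 52.5% of 200 changed genes among 19775 were recovered between the populations in TPA, with 93.5% at 1. For the difference in response 0% were recovered at 0.5 and 86% at 1. Of the genes called in the simulation, 7.89% at 0.5 and 6.5% at 1 were false in TPA, and 7.03% at 1 for the response. The simulation changed a smaller share of genes than the 11.2% called between the populations in TPA, so its recovery need not hold there. Alternatives were the replicate number as a block, other arrays, probe sets, filters, normalization and moderation, and each array left out. Replicate numbers were taken to pair the samples between the populations in TPA, where deviations from group means correlated between same-numbered arrays (0.415, 0.13 and 0.151). No label gives the reason for a pairing.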

Additional observations from a re-analysis of the deposited data

Results flagged for a closer look

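None of the 10 integrin genes had a response to TPA that differed between the populations at an adjusted p below 0.05. Over all genes 1.98% did. In the related lists and marker lists together 7 genes did, which are named because they were called, so their number is no share of a fixed set. The values are limma's difference in response, EVI1-labelled minus empty vector cells on the log2 scale. The difference was 1.28 ± 0.23 for the integrin gene ITGAD, which rose in EVI1-labelled cells. For the transcription factor gene CEBPA, which was not called in EVI1-labelled cells and fell in empty vector cells, it was 0.93 ± 0.18. For RASGRP2, which fell in either population, it was 0.65 ± 0.14. The difference was negative for DAB2, at -0.82 ± 0.17, for the ITGB2 integrin ligand ICAM1, at -0.86 ± 0.17, for CD14, at -2.06 ± 0.27, and for the chemokine gene PPBP, at -4.41 ± 0.31. The sizes for ITGAD, CD14 and PPBP are uncertain, since each has groups not shown to be above background. No explanation of these values was tested.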

How the results depend on the processing

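Each of the 10 integrin genes was recomputed under 7 other settings and without each array, and of these values 894 kept their direction and side of the threshold, 18 lost a call, 2 gained one and 21 changed sign. For TPA against ethanol 9 genes were called under every setting in either population. With the replicate block, the 10 genes kept all their calls, and the count between the populations in TPA was 4, with 2498 genes called in all. The same block gave 8123 and 8779 called genes for TPA in EVI1-labelled and empty vector cells, 729 between the populations in ethanol and 516 for the difference in response. With only the arrays of the groups compared, 1 integrin gene and 1241 of all genes differed between the populations in TPA, while 945 of all genes differed in ethanol, more than the 647 of the fit over all arrays. With each array left out, 2 to 5 integrin genes differed between the populations in TPA and 0 to 1 in response, while the counts of all genes were 369 to 787 between the populations in ethanol and 188 to 681 in response.

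Signs changed only for genes that were not called. With the mean over all probe sets ITGB3 was at 0.0095 for TPA in EVI1-labelled cells and at 0.026 and 0.01 between the populations in TPA and ethanol, and ITGB1 at -0.0014 in ethanol. With quantile normalization ITGA4 was at 0.0064 between the populations in ethanol. Without each array, ITGB3 ranged from -0.16 to 0.018 for TPA in EVI1-labelled cells. Between the populations in TPA the ranges were -0.087 to 0.018 for ITGB3, -0.0033 to 0.057 for ITGA4 and -0.082 to 0.20 for ITGB7. In ethanol they were -0.09 to 0.06 for ITGAX, -0.13 to 0.012 for ITGB2, -0.11 to 0.072 for ITGA4 and -0.017 to 0.04 for ITGB1. In response they were -0.20 to 0.005 for ITGB2 and -0.045 to 0.14 for ITGA4. The cause was not tested. ITGB3 lay under the median of all genes and had no value where such genes were left out. Outside the comparison of the populations in TPA, each comparison had at least 1 replicate number whose correlation was under 0.1 (0.0913, 0.0794 and 0.0753). The numbers were not taken as pairs there, and the main fit used no pairs in any comparison. The dim readings of ITGAM and ITGAX in ethanol limit what can be said of the size of their rise.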
